A study of Mus musculus with 4 samples.

Results

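The Ms4a family of myeloid and lymphoid cells was examined in thyroids of NOD.H-2h4 mice, which are prone to autoimmune inflammation of the thyroid, after blockade of PD-L1. Its 8 members, Ms4a4a, Ms4a4b, Ms4a4c, Ms4a4d, Ms4a6b, Ms4a6c, Ms4a6d and Ms4a7, were taken from the count table by gene symbol, and all 8 were among its 16218 genes. The B cell gene Ms4a1 was kept out of the group. Mice had received 3 injections a week over 2 weeks of either a monoclonal antibody against PD-L1 (the anti-PD-L1 group) or an isotype control IgG (the IgG group), and each of the 4 poly(A)-selected thyroid libraries, 2 per group, is titled as coming from a mouse of its own. The labels give neither age nor sex. Their batch field holds a different antibody clone string for each library, so batch and group cannot be told apart. Whether these strings mark true batches or the antibody a mouse received is not known.

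MS4A genes encode small proteins that cross the cell membrane several times, with both ends inside the cell, and that sit beside immune receptors and tune their signalling. The best known member is CD20, the B cell protein encoded by Ms4a1. Several of the others are made by macrophages, monocytes or T cells, and in the mouse some of these exist as closely related copies in a single cluster. The thyroid follicle itself is an epithelium, and these genes are known as genes of the immune cells found in it rather than of the epithelium. In such bulk RNA, more cells of a type and more RNA per cell cannot be told apart.

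Library totals were 75591923 and 77685257 counts in anti-PD-L1 replicates 1 and 2, and 79663374.5 and 77492328 counts in IgG replicates 1 and 2. Tg, which encodes thyroglobulin, took 4.34% and 16.9% of all counts in the anti-PD-L1 thyroids and 15.3% and 14.6% in the IgG thyroids. Anti-PD-L1 replicate 1 stood apart from the other libraries in its low Tg share and in sex-linked transcripts, given in CPM, each gene's counts scaled to a common library size. Xist was at 1.40 CPM there against 67.7 to 72.7 CPM elsewhere, and Y-linked Ddx3y at 62.6 CPM against 0.350 to 0.790 CPM elsewhere. No IgG library had this pattern, so the groups were not matched in sex-linked transcripts. Squamous epithelial transcripts also differed by library. Their summed CPM over 9 genes was 4550 and 61.1 in the anti-PD-L1 thyroids and 11190 and 3033 in the IgG thyroids. The part of these differences in the Ms4a values was not tested, and the Ms4a values without each library are given below.

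The 8 genes lie within 283.8 kb of chromosome 19 (GRCm38, GENCODE annotation), from 11321039 to 11604849. Their order is Ms4a7 (11321039 to 11336146, minus strand), Ms4a4a (11375523 to 11392790), Ms4a4c (11404770 to 11427246), Ms4a4b (11443553 to 11467055), Ms4a6c (11469366 to 11482192), Ms4a6b (11516512 to 11531256), Ms4a4d (11536801 to 11558467), all on the plus strand, and Ms4a6d (11586604 to 11604849, minus strand). Exons of Ms4a4c, Ms4a6c and Ms4a6b overlap an annotated gene on the opposite strand, named Gm5692, BE692007 and Gm19261 in that order. The strand setting of the counting is not given in the sources used here, so reads from the opposite strand cannot be told apart at those exons.

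Several genes of the cluster are close paralogs. The coding sequences of Ms4a4b and Ms4a4c were 91.7% identical over 678 aligned bases, those of Ms4a4c and Ms4a4d 87.9%, those of Ms4a6b and Ms4a6c 86.4%, and those of Ms4a6b and Ms4a6d 81.8%. The longest identical coding stretch of Ms4a4b and Ms4a4c is shown as the stretch in which the 2 genes cannot be told apart by sequence. It has 127 bases and runs from coding base 321 to coding base 447 of Ms4a4b, counted from the start codon in the GENCODE transcripts.
Ms4a4b and Ms4a4c, shared coding stretch: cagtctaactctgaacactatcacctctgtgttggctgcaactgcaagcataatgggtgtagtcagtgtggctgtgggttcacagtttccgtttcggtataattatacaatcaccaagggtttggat
Of all stretches of 50 bases in the coding transcript with the longest coding sequence, 4.19% in Ms4a4b, 8.48% in Ms4a4c, 5.89% in Ms4a6b and 11.3% in Ms4a6c occurred identically in a transcript of another gene. The share was 0.546% in Ms4a4d, 2.92% in Ms4a6d and 0 in Ms4a4a and Ms4a7. At the 150-base read length none of the 8 transcripts held a stretch identical to another gene's transcript. How the counting treated reads that align to more than 1 gene is not given in the sources used here, so the sums of Ms4a4b with Ms4a4c and of Ms4a6b with Ms4a6c are given beside their single values.

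The promoters of the same paralog pairs are also alike. RefSeq windows of 250 bases before to 50 bases after the transcript start (GRCm38.p6) were found for 7 of the 8 members. The aligned bases of the Ms4a6b and Ms4a6c windows were 85.3% identical, and those of Ms4a4b and Ms4a4c 81.9%. No other pair of windows from different members was above 68.1%. These windows are shown because the 4 genes had similar values across the libraries, and that of Ms4a4a because its values did not follow them. All are on the plus strand of chromosome 19, and for Ms4a4c and Ms4a6b GENCODE also has a start further upstream than the RefSeq start. In the first pair the capitals mark 1 of the identical runs of 20 bases, and in the second pair they mark a 9-base match to GAAANNGAA, the repeated GAAA core that interferon regulatory factors bind. The Ms4a4a window had no match and is in lower case throughout.
Ms4a4b, chr19:11443308-11443607: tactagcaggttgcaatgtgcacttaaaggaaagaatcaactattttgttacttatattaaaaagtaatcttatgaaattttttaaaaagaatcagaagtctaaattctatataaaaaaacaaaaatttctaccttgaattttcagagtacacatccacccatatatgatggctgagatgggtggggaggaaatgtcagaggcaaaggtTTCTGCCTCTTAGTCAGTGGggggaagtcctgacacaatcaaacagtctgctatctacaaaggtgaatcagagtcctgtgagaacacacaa
Ms4a4c, chr19:11407411-11407710: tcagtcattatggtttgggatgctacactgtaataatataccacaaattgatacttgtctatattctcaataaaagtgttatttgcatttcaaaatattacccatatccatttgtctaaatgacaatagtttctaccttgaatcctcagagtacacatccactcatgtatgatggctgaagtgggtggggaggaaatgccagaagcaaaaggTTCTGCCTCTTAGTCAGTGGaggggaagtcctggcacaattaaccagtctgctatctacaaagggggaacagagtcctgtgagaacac
Ms4a6b, chr19:11518309-11518608: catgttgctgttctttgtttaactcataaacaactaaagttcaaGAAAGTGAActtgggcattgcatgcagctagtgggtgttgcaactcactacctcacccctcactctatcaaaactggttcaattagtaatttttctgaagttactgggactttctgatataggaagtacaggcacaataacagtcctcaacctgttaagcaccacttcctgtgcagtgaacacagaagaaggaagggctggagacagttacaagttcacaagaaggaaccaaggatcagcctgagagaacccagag
Ms4a6c, chr19:11469118-11469417: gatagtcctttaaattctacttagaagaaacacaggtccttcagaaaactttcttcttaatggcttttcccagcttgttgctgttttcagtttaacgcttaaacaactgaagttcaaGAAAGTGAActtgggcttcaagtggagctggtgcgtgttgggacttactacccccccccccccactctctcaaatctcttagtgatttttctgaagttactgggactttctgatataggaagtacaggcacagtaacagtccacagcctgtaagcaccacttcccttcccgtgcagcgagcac
Ms4a4a, chr19:11375238-11375537: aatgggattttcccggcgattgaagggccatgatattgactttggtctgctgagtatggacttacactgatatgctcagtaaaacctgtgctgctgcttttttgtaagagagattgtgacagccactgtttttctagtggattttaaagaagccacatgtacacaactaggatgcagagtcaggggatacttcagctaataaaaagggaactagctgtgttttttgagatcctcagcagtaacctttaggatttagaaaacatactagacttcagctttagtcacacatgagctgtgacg
Searched on both strands, GAAANNGAA occurred in 4 of the 8 windows, which belong to Ms4a6b, Ms4a6c and both RefSeq starts of Ms4a7, and in 8.56% of all 32851 mouse windows in the table. Relative to the start, the match begins at base −206 in Ms4a6b and at base −133 in Ms4a6c. The interferon-stimulated response element pattern, the same letters with 1 more A at the end, was in 0 of the 8 windows and 3.44% of all windows. The ETS pattern AGGAAGT was in the windows of Ms4a6b and Ms4a6c and in 9.35% of all, its longer form GAGGAAGT in 0 of the 8 and 3.2% of all, and TTGCNNAA, a C/EBP-type pattern, in that of Ms4a4d and in 10.8% of all. The patterns were chosen after the sequences had been seen. A match is a description of the letters and no evidence of binding, and a window without one says only that these letters are not in it.

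The question the series put to the comparison was which thyroid genes differ after PD-L1 is blocked. The members and the gene lists below were chosen with earlier results of these data known, so their counts beside the share of all genes are a description. For 7 of the 8 Ms4a genes both anti-PD-L1 thyroids were above both IgG thyroids, against 16.5% of all 16217 genes tested. The exception was Ms4a4a, which differed by less than the spread within the groups. Summed over the 8 genes the level was 114 and 123 CPM in the anti-PD-L1 thyroids, against 17.3 and 29.4 CPM in the IgG thyroids. The median log2 fold change of the 8 was 2.59, where that of all tested genes was 0.000211. A log2 fold change of at least 1 was found in 7 of the 8, against 4.16% of all genes. In edgeR's quasi-likelihood test, with p-values adjusted over all genes by the Benjamini-Hochberg method, no Ms4a gene passed the threshold of 0.05, and neither did any other gene (0 of 16217, or 0%, the smallest adjusted p being 0.0635). At an unadjusted p under 0.05, 7 of the 8 were higher with edgeR, against 4.96% of all genes. DESeq2, with an adjusted p under 0.05, called the same 7 higher, against 2.93% of all genes, and limma voom called 0 of 8 (0% of all genes). With 2 libraries per group, no exact permutation test of a single gene can give a p below 0.333.

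**Figure D1:**
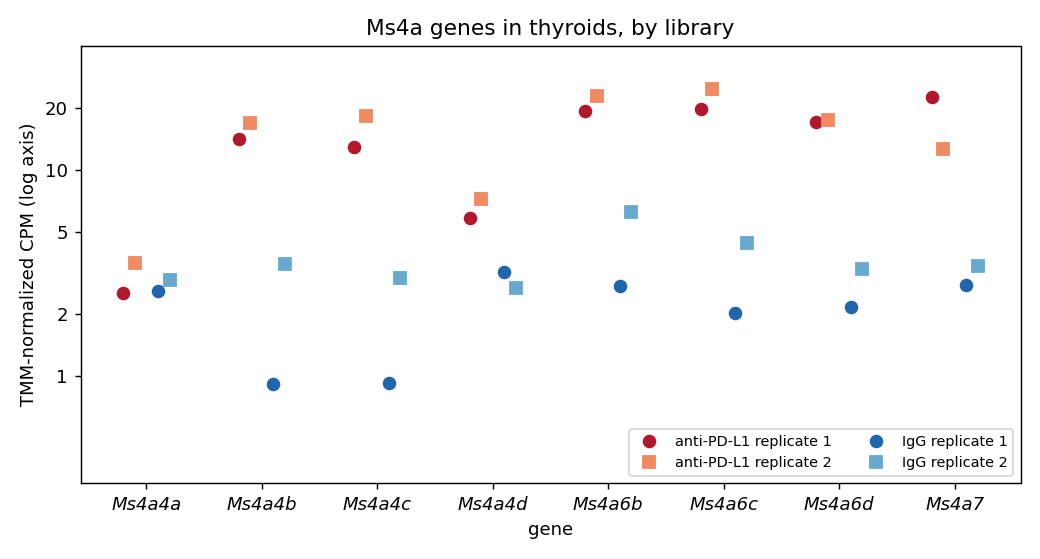
Level of each Ms4a gene in each library, as TMM-normalized CPM on a log axis, with the anti-PD-L1 thyroids in red and orange and the IgG thyroids in blue. Each point is 1 library; in 7 genes both anti-PD-L1 points lie above both IgG points, and in Ms4a4a, between 2.52 and 3.52 CPM, the points intermingle.

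Among the members of macrophages and monocytes, Ms4a6d had the smallest p of the 8. It is a macrophage gene whose protein has been found in mouse macrophages together with VSIG4. Ms4a6d had 17.1 and 17.5 CPM in the anti-PD-L1 thyroids, against 2.16 and 3.30 CPM in the IgG thyroids. The anti-PD-L1 thyroids were close to each other, and the lower of them was 5.19 times the higher IgG library. Its log2 fold change was 2.66 ± 0.28 (SE, n = 2 per group), a 6.34-fold difference (edgeR adjusted p = 0.162, DESeq2 adjusted p = 6.19e-13).

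Ms4a7, a gene of tissue macrophages including those at the borders of the brain, had 22.6 and 12.6 CPM in the anti-PD-L1 thyroids, against 2.75 and 3.40 CPM in the IgG thyroids. The groups did not overlap. It was the only 1 of the 8 with its highest value in anti-PD-L1 replicate 1, and the anti-PD-L1 thyroids differed more from each other (the second at 0.557 times the first) than the IgG thyroids did (1.24 times). Its log2 fold change was 2.52 ± 0.36 (edgeR adjusted p = 0.2, DESeq2 adjusted p = 1.24e-07).

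Ms4a6c, a transcript abundant in mouse monocytes, had 19.8 and 24.7 CPM in the anti-PD-L1 thyroids, against 2.01 and 4.39 CPM in the IgG thyroids, and its log2 fold change was 2.80 ± 0.45 (edgeR adjusted p = 0.225, DESeq2 adjusted p = 3.16e-07). Its paralog Ms4a6b had 19.3 and 22.9 CPM in the anti-PD-L1 thyroids, against 2.73 and 6.25 CPM in the IgG thyroids, and its log2 fold change was 2.23 ± 0.45 (edgeR adjusted p = 0.32, DESeq2 adjusted p = 0.000256). Neither gene's groups overlapped, and in both genes replicate 2 was the higher library of its group. Summed, which does not depend on how reads were split between them, the 2 genes had 39.1 and 47.6 CPM in the anti-PD-L1 thyroids and 4.74 and 10.6 CPM in the IgG thyroids. Ms4a6c was the only member with counts that were not whole, in 2 libraries.

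Ms4a4b, a member known from T cells, though not shown here to be the only one, encodes a protein that associates with the co-stimulatory receptor GITR in the mouse. It had 14.1 and 16.9 CPM in the anti-PD-L1 thyroids, against 0.913 and 3.51 CPM in the IgG thyroids. The groups did not overlap, but IgG replicate 2 had 3.84 times the level of IgG replicate 1, the widest gap within a group among the 8 genes. The log2 fold change was 2.81 ± 0.69 (edgeR adjusted p = 0.436, DESeq2 adjusted p = 0.00103), and without anti-PD-L1 replicate 2 the DESeq2 adjusted p was 0.0607. Ms4a4c, its closest paralog, had 12.9 and 18.2 CPM in the anti-PD-L1 thyroids, against 0.925 and 2.98 CPM in the IgG thyroids. Its log2 fold change, the largest of the 8, was 2.99 ± 0.64 (edgeR adjusted p = 0.344, DESeq2 adjusted p = 8.69e-05). It also had a wide gap between the IgG thyroids, 3.22 times. The sum of the pair was 27.0 and 35.0 CPM in the anti-PD-L1 thyroids and 1.84 and 6.49 CPM in the IgG thyroids. The summed CPM of 18 T cell markers was likewise lower in IgG replicate 1, at 43.2 CPM, than in IgG replicate 2, at 85.5 CPM, and its part in the Ms4a4b values was not tested.

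Ms4a4d had the smallest difference among the 7 genes whose groups did not overlap. It had 5.81 and 7.20 CPM in the anti-PD-L1 thyroids, against 3.18 and 2.68 CPM in the IgG thyroids. Its log2 fold change was 1.15 ± 0.25, a 2.22-fold difference (edgeR adjusted p = 0.341, DESeq2 adjusted p = 0.012). The DESeq2 call was lost without any 1 of the 4 libraries (adjusted p from 0.0956 to 0.791) and with the replicate block (adjusted p = 0.22). It was also the only member other than Ms4a7 in which replicate 2 was not the higher library of its group throughout, IgG replicate 2 being at 0.843 times IgG replicate 1.

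Ms4a4a, which encodes a surface protein of macrophages that has been found in a complex with the beta-glucan receptor Dectin-1 in mouse macrophages, had 2.52 and 3.52 CPM in the anti-PD-L1 thyroids, against 2.59 and 2.93 CPM in the IgG thyroids. Anti-PD-L1 replicate 1 was the lowest library and anti-PD-L1 replicate 2 the highest, so the groups overlapped. The log2 fold change was 0.13 ± 0.28 (edgeR adjusted p = 1.00, DESeq2 adjusted p = 1.00), and it was −0.14 without anti-PD-L1 replicate 2. A p above the threshold does not show that the gene was the same in both groups. Its position is inside the cluster, between Ms4a7 and Ms4a4c.

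**Figure D2:**
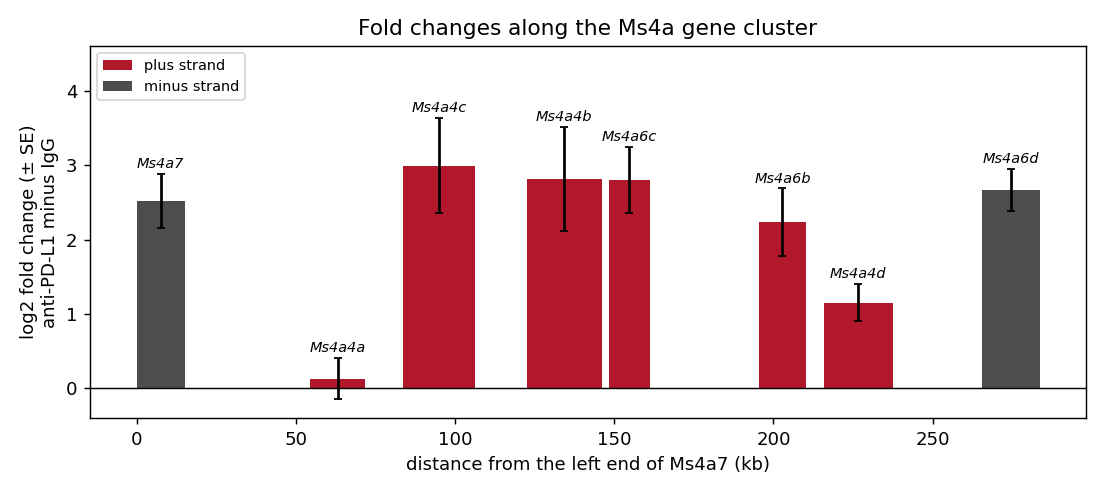
Log2 fold change (anti-PD-L1 minus IgG, bars, with ± SE from edgeR as whiskers) of each Ms4a gene against its distance in kb from the left end of Ms4a7, each bar as wide as its gene. Plus-strand genes are red and minus-strand genes grey. Ms4a4a, at 0.13, lies between Ms4a7 at 2.52 and Ms4a4c at 2.99.

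How far the differences rest on single libraries was examined by leaving out each in turn. Without IgG replicate 2, the log2 fold change was 4.08 for Ms4a4b, 4.07 for Ms4a4c, 3.46 for Ms4a6c and 2.95 for Ms4a6b. Without IgG replicate 1, it was 2.12 for Ms4a4b, 2.36 for Ms4a4c, 2.32 for Ms4a6c and 1.74 for Ms4a6b. Ms4a6d stayed between 2.37 and 3.0, and Ms4a4d between 0.98 and 1.30. For Ms4a7 the value was 2.04 without anti-PD-L1 replicate 1, the library with the sex-linked and Tg differences, and 2.87 without anti-PD-L1 replicate 2. The 7 genes were higher in anti-PD-L1 in each of these fits, which follows from their separate groups and is no further support. The sizes of their differences moved most in the genes with the widest gap between the IgG thyroids.

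**Figure D3:**
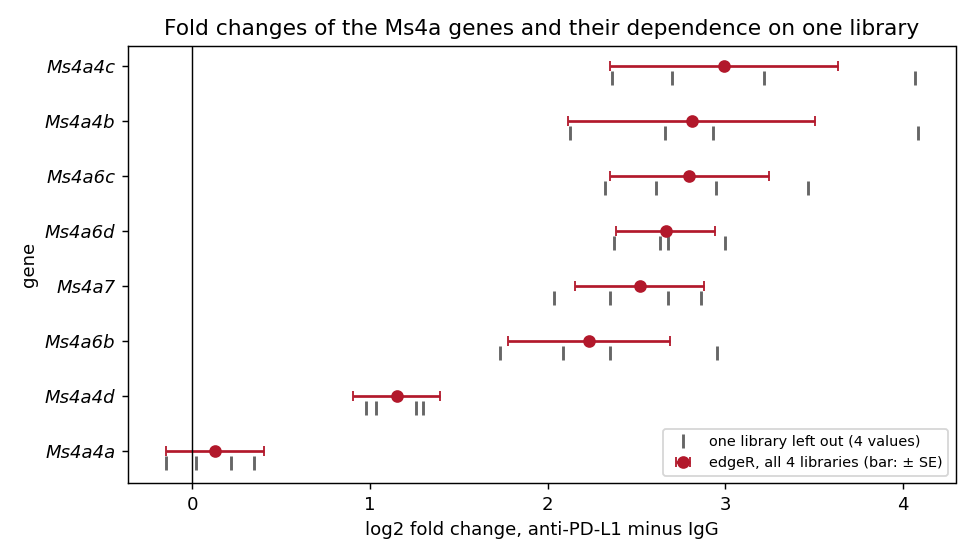
Log2 fold change of each Ms4a gene (anti-PD-L1 minus IgG) with all 4 libraries (red, ± SE from edgeR), and the 4 values with 1 library left out (grey ticks). The ticks of Ms4a4b run from 2.12 to 4.08, those of Ms4a6d from 2.37 to 3.0, and those of Ms4a4a lie on both sides of 0.

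The order of the members' levels was compared in CPM per kb of the coding transcript, each pair of values below being replicates 1 and 2. In the anti-PD-L1 thyroids Ms4a6d (12.1 and 12.3 CPM per kb), Ms4a6c (10.8 and 13.4) and Ms4a7 (14.4 and 8.0) were at the top and did not differ beyond their spread. Ms4a4c (7.46 and 10.5) and Ms4a6b (7.21 and 8.53) followed, overlapping each other, and both also overlapped Ms4a7. Ms4a4d (3.84 and 4.76), Ms4a4a (3.01 and 4.21) and Ms4a4b (2.98 and 3.55) were below these, each overlapping the next. Per kb of the coding transcript the 3 lowest genes were thus set apart from the 5 others. Per kb of all annotated exons they were not, since Ms4a7 (5.08 and 2.83) and Ms4a6b (4.31 and 5.10) then overlapped Ms4a4d and Ms4a7 also overlapped Ms4a4a. In the IgG thyroids Ms4a4a was the most abundant of the 8, at 3.10 and 3.50 CPM per kb. After it came Ms4a7 (1.75 and 2.16), Ms4a4d (2.10 and 1.77), Ms4a6d (1.53 and 2.32), Ms4a6c (1.09 and 2.38) and Ms4a6b (1.02 and 2.33), which overlapped. Ms4a4c (0.537 and 1.73) and Ms4a4b (0.192 and 0.738) were lowest by mean and overlapped each other. The first place of Ms4a4a in the IgG thyroids did not depend on which exons set the length. Per kb of all annotated exons it was again the highest, at 3.10 and 3.50, with Ms4a4d next at 2.10 and 1.77, whereas the order of the other genes changed.

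Shares of the family sum restate the same CPM, so they follow from the fold changes above and are no separate result. As a share of the summed CPM of the 8 genes, Ms4a4a was 2.20% and 2.85% in the anti-PD-L1 thyroids and 15.0% and 9.95% in the IgG thyroids. Ms4a4d was 5.09% and 5.83% in the anti-PD-L1 thyroids and 18.4% and 9.10% in the IgG thyroids. Ms4a6c was 17.3% and 20% in the anti-PD-L1 thyroids and 11.7% and 14.9% in the IgG thyroids. Ms4a4a and Ms4a4d thus held a smaller part of the sum in both anti-PD-L1 thyroids, and Ms4a6c a larger one, without overlap of the groups. For Ms4a4d the share was smaller although its CPM was higher in both anti-PD-L1 thyroids. The shares of Ms4a4b, Ms4a4c and Ms4a6d were also larger without overlap, and those of Ms4a6b and Ms4a7 overlapped.

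Ratios of CPM between genes within a library, which do not depend on scaling between libraries, show which members differed from each other between the groups. Ms4a7 over Ms4a4a was 8.99 and 3.59 in the anti-PD-L1 thyroids, against 1.06 and 1.16 in the IgG thyroids. Ms4a6b over Ms4a6c was 0.976 and 0.926 in the anti-PD-L1 thyroids and 1.35 and 1.42 in the IgG thyroids. Both ratios separated the groups. Ms4a4b over Ms4a4c, in contrast, was 1.10 and 0.927 in the anti-PD-L1 thyroids and 0.987 and 1.18 in the IgG thyroids, with overlap.

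Members were also set against markers of the cells they are made in. Csf1r encodes the growth factor receptor that marks macrophages and monocytes. Ms4a6d over Csf1r was 0.270 and 0.199 in the anti-PD-L1 thyroids, against 0.0728 and 0.0893 in the IgG thyroids. Ms4a7 over Csf1r was 0.357 and 0.144 in the anti-PD-L1 thyroids, against 0.0926 and 0.0921 in the IgG thyroids. Both ratios were higher in both anti-PD-L1 thyroids, but for Ms4a7 the anti-PD-L1 thyroids differed from each other by more than the group means did. Against Adgre1, the gene of the F4/80 antigen, Ms4a6d was at 0.437 and 0.328 in the anti-PD-L1 thyroids and 0.221 and 0.259 in the IgG thyroids. Against the complement gene C1qa, Ms4a7 was at 0.0716 and 0.0463 in the anti-PD-L1 thyroids and 0.0493 and 0.0448 in the IgG thyroids, where the groups overlapped. The outcome for Ms4a7 thus differed with the macrophage gene it was set against. Ms4a6d was set only against Csf1r and Adgre1, whose log2 fold changes were smaller than its own 2.66. The macrophage marker Aif1, with the largest value of its list, had 2.75 ± 0.37.

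Ms4a4b over Cd3e, a chain of the T cell receptor complex, was 1.42 and 1.40 in the anti-PD-L1 thyroids, against 0.785 and 1.16 in the IgG thyroids. Over Cd3g, another chain, it was 0.753 and 1.10 in the anti-PD-L1 thyroids, against 0.376 and 0.859 in the IgG thyroids. The groups were separate for the first chain and overlapped for the second. No test was run on these ratios, which are given as a description.

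**Figure D4:**
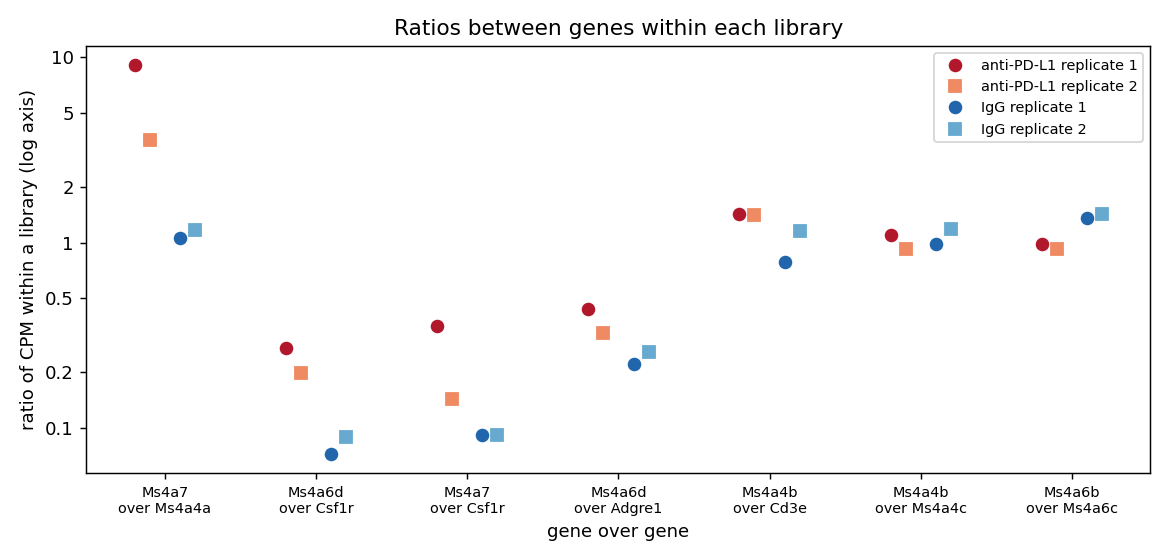
Ratio of the CPM of 1 gene to that of another within each library, on a log axis, with anti-PD-L1 thyroids in red and orange and IgG thyroids in blue. Ms4a7 over Ms4a4a is 8.99 and 3.59 in anti-PD-L1 and 1.06 and 1.16 in IgG, while Ms4a4b over Ms4a4c overlaps between the groups.

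Of 8 genes whose products are known to work with MS4A proteins or in the same receptors, 7 were in the table. Both anti-PD-L1 values were above both IgG values in 6 of these (16.5% of all genes), with 0 of 7 passing in edgeR (0% of all genes) and 5 passing in DESeq2 (2.93% of all genes). Clec7a, the gene of Dectin-1, had 23.5 and 18.4 CPM in the anti-PD-L1 thyroids, against 2.78 and 3.87 CPM in the IgG thyroids. Its log2 fold change was 2.66 ± 0.27 (edgeR adjusted p = 0.162), where that of Ms4a4a, whose protein has been found with it, was 0.13 ± 0.28. For Ms4a6d and Vsig4 it was the other way round. Vsig4, a complement receptor gene of resident macrophages, had 1.46 and 2.54 CPM in the anti-PD-L1 thyroids, against 2.13 and 2.18 CPM in the IgG thyroids, and the groups overlapped. Tnfrsf18, the gene of GITR, had 6.5 and 6.96 CPM in the anti-PD-L1 thyroids, against 1.58 and 2.50 CPM in the IgG thyroids (1.73 ± 0.31, edgeR adjusted p = 0.259), with separate groups as in Ms4a4b. Trem2, a lipid receptor of macrophages, and Tyrobp, its signalling adaptor, had log2 fold changes of 1.52 ± 0.24 and 1.66 ± 0.30, and Fcer1g, the Fc receptor gamma chain, 2.56 ± 0.49. The kinase gene Syk had 1.14 ± 0.42 (DESeq2 adjusted p = 0.275).

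Of 14 other genes of the MS4A family and of the related TMEM176 family, 3 were in the table. Ms4a1, the gene of CD20, had 22.5 and 10.7 CPM in the anti-PD-L1 thyroids, against 3.35 and 17.1 CPM in the IgG thyroids. IgG replicate 2 lay between the anti-PD-L1 thyroids, so the groups overlapped (0.70 ± 0.85, edgeR adjusted p = 1.00). Tmem176a had 153 and 158 CPM in the anti-PD-L1 thyroids, against 117 and 133 CPM in the IgG thyroids. Tmem176b had 157 and 169 CPM in the anti-PD-L1 thyroids, against 120 and 141 CPM in the IgG thyroids. These last 2 genes had separate groups but small log2 fold changes, 0.32 ± 0.18 and 0.32 ± 0.19 (edgeR adjusted p = 1.00 for each).

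Marker genes of immune cells are given beside the Ms4a values, since they differed in the same comparison, and their part in the Ms4a values was not tested. In the macrophage and monocyte list 16 of 24 genes had both anti-PD-L1 thyroids above both IgG thyroids and 1 had both below (background 16.5% and 13.1%), with a median log2 fold change of 1.18, and none was at 0 in any library. Its summed CPM was 12970 and 3572 in the anti-PD-L1 thyroids and 1336 and 5963 in the IgG thyroids, which overlapped, most of it from Lyz2. Without Lyz2, a choice made after its values were seen, it was 1250 and 1156 CPM in the anti-PD-L1 thyroids, against 456 and 481 CPM in the IgG thyroids. Adgre1 differed by a log2 fold change of 2.04 ± 0.25, Csf1r 1.18 ± 0.23, Fcgr1, the high-affinity IgG receptor gene, 2.32 ± 0.21, and Ly6c2, a monocyte marker, 2.40 ± 0.33 (edgeR adjusted p from 0.16 to 0.306). The scavenger receptor gene Cd163 (0.39 ± 0.42), the folate receptor gene Folr2 (0.25 ± 0.30), Lyve1 (−0.53 ± 0.21) and Mertk (−0.28 ± 0.24), all expressed by resident macrophages and chosen after their values were seen, had edgeR adjusted p between 0.895 and 1. Other genes of the list that resident macrophages express had larger values, among them Mrc1 (0.96 ± 0.20), Timd4 (1.18 ± 0.38), Cx3cr1 (1.6 ± 0.23), C1qa (2.16 ± 0.26), C1qb (2.29 ± 0.25) and C1qc (2.21 ± 0.25), with edgeR adjusted p between 0.164 and 0.64.

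In the T cell list all 18 genes had both anti-PD-L1 values above both IgG values, against 16.5% of all genes tested. The median was 1.77, and the summed CPM was 233 and 241 in the anti-PD-L1 thyroids and 43.2 and 85.5 in the IgG thyroids. The same held for all 11 listed genes of NK and cytotoxic cells, with a median of 2.76 and sums of 91.8 and 83.0 CPM in the anti-PD-L1 thyroids and 6.84 and 13.5 CPM in the IgG thyroids. It held for 10 of 12 dendritic cell genes, with a median of 1.68 and sums of 225 and 254 CPM in the anti-PD-L1 thyroids and 51.9 and 93.5 CPM in the IgG thyroids. In the B cell list 1 of 10 genes had separate groups, near the 16.5% of all genes. The median was 0.30, and the sums, 160 and 82.2 CPM in the anti-PD-L1 thyroids and 45.1 and 135 CPM in the IgG thyroids, overlapped. In the mast cell list it was 0 of 7 genes (median −0.0072), and in the neutrophil list 1 of 6 (median −0.31), with the neutrophil gene S100a8 between 0.250 and 1.71 CPM over the 4 libraries. Both counts are near what the share over all genes gives for lists this short. The interferon gamma response list had separate groups in 24 of 24 genes, and a median of 2.48. With edgeR, 0 genes of any of these lists passed. Of the 12 thyroid follicular genes 0 had separate groups in either direction (median 0.0023), and of 11 mucosal gland genes likewise 0 (median 0.34). Over all genes, the background for each list here, 16.5% had both anti-PD-L1 values above and 13.1% had both below. Since the lists were written with earlier results of these data known, a count above that background is a description only.

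**Figure D5:**
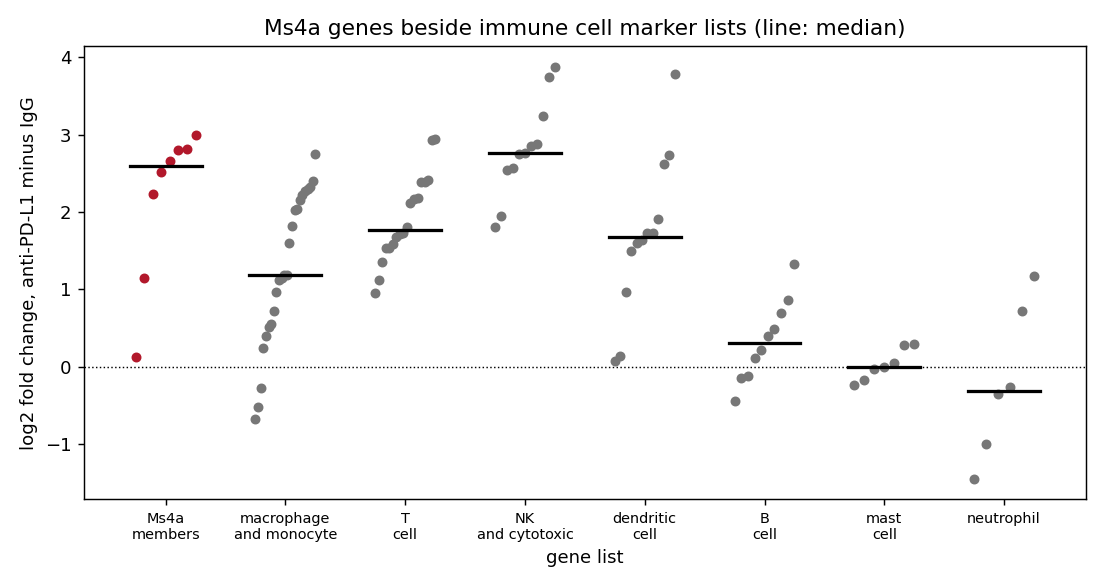
Log2 fold change (anti-PD-L1 minus IgG) of each Ms4a gene (red) and of each gene of 7 immune cell marker lists (grey), with the median of each list as a black line. The medians are 2.59 for the Ms4a genes, 1.18 for macrophages and monocytes, 1.77 for T cells and 0.30 for B cells.

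Genes of like pattern were sought for each member among 16062 genes with a mean of at least 1 CPM, by the Euclidean distance between log2 CPM centred on each gene's mean over the 4 libraries. Over so few libraries many genes come close, and the distances are a description only. The nearest gene to Ms4a4b was Ms4a4c and the nearest to Ms4a4c was Ms4a4b (distance 0.265), followed by Ciita and Itgax for Ms4a4b and by Slfn1 and Il2rb for Ms4a4c. For Ms4a6b the nearest were Cd4 (0.153), Evi2b and Fam105a, and its paralog Ms4a6c ranked 88th. For Ms4a6c they were Gbp4 (0.228), Mpeg1 and Ctsw, for Ms4a6d Trim30a (0.118), and for Ms4a7 Clec4a3 (0.318), Cd86 and Lst1. Ms4a4d was nearest to Ifitm3 (0.0576), Samhd1 and Dab1. Ms4a4a was nearest to Mogat1 (0.0234), Srsf4 and Napepld, and the first other member by distance was Ms4a4d, at rank 13690. By rank the nearest member to Ms4a4d was Ms4a4a, at 3242.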

How the data were processed

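Poly(A)-selected RNA of 4 thyroids was sequenced as paired-end 150-base reads, per the labels' protocols. The authors deposited expected counts per gene symbol, not normalized, and per the submitters' processing notes BWA and mm10 were used. For the counting program, annotation and strand setting, the sources used here name none. Of 16218 genes, 3328 had a count that was not whole in at least 1 library, and 13 blank cells were read as 0. Each gene reached 100 counts in at least 1 library.

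Counts were rounded. The 16217 genes kept by filterByExpr were tested in edgeR 4.0.16 under R 4.3.3, with TMM factors, a model of group only and the robust two-sided quasi-likelihood test, and p-values were adjusted by Benjamini-Hochberg (threshold 0.05). Residual degrees of freedom were 2, and the median biological coefficient of variation was 24.4%. CPM are TMM-normalized, and a positive log2 fold change means a higher level in anti-PD-L1. The SE was derived from the fold change and the F statistic. At these depths 3 counts correspond to 0.0377 to 0.0397 CPM, for counting error only. Libraries of a group differed far beyond sampling noise (1060 for anti-PD-L1 and 321 for IgG, as chi-square over its degrees of freedom). Nothing but the titles says that libraries came from separate mice, so p-values measure the spread between these samples.

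Transcripts, exons and coordinates came from GENCODE M21 on GRCm38, the assembly also called mm10, and promoter windows from RefSeq. Sequences were compared with Biopython 1.88. Alternatives were other scalings and filters, DESeq2 1.42.0, limma 3.58.1 voom, a block for replicate number, omission of each library, other thresholds, other rounding, and neighbouring-tissue genes left out. DESeq2 with each library left out or with the block was added after seeing the data. The group-only models of edgeR, limma voom and DESeq2, with the main scaling and filter, were first tested on simulated data. The other alternatives were not. The named genes are the 8 members, other family and partner genes in the table, marker genes from fixed lists and each member's 3 genes of nearest pattern, some of which are not reported here. Members and lists were chosen with earlier results of these data known.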

Additional observations from a re-analysis of the deposited data

How the results depend on the processing

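With edgeR or limma voom, under 15 alternatives of scaling, filter, test, block, threshold, rounding or libraries, 0 of the 8 Ms4a genes passed. DESeq2 passed 7 of the 8, and 475 genes higher and 53 lower in all. With an adjusted p under 0.10, edgeR called 15 genes higher, none of them a member. Leaving out each library in turn, with edgeR or DESeq2, gave between 0 and 6 members, between 0 and 491 genes higher and between 0 and 656 lower. DESeq2 with the replicate block gave 6 members, 418 genes higher and 150 lower, and edgeR with the replicate block 0 of each. With 1 library left, a group is assumed to vary like the other. The DESeq2 counts moved most without anti-PD-L1 replicate 1 (656 lower), without anti-PD-L1 replicate 2 (355 lower) and without IgG replicate 1 (197 higher). The numbers are not shown to pair the samples: the correlation of same-numbered deviations was 0.0998, with only 2 pairs. Over all 21 alternatives the 7 genes with separate groups kept a positive log2 fold change. Alternatives that changed only the threshold reused the main fit, so their fold changes could not differ. With a library left out, the sign follows from the separate groups. Ms4a4a was reversed without anti-PD-L1 replicate 2, ranging from −0.145 to 0.35 with each library left out (−0.14 with DESeq2). Ms4a4d passed in 1 of 6 DESeq2 fits, Ms4a4b in 5 and the other 5 genes in all 6. The cause of the difference between tools was not tested.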
